A study of Mus musculus with 20 samples.

Results

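The 9 genes described here act in the p53 response or in growth arrest: Cdkn1a, Mdm2, Ccng1, Btg2, Phlda3, Gadd45a, Gadd45b, Gadd45g and Ccnd1. They were chosen by name from a list of p53 and growth arrest genes out of 46078 genes in the table of counts. All 9 had enough counts for the test, among 14759 genes tested.

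The study asked how the liver responds to loss of cysteine, with a diet lacking tryptophan as a comparison. Messenger RNA of 20 livers from male mice was sequenced and counted per gene, each library from the liver of 1 mouse. The mice lacked Cse (Cse-/-), the gene of cystathionine γ-lyase that makes cysteine from cystathionine, or carried 1 copy of it (Cse+/-). They came from a mixed 129 and C57BL/6 background, and no mouse was younger than 9 weeks when its diet began. All were calorie-restricted, first on a defined amino acid control diet, and livers were taken 2 days after the change of diet.

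Of the 9 Cse+/- mice, 2 stayed on the control diet, 4 received a diet without cysteine (no-Cys) and 3 a diet without tryptophan (no-Trp). Of the 11 Cse-/- mice, 4 received no-Cys, 3 received no-Trp and 4 received no-Trp with added BSO. BSO is L-buthionine sulfoximine, an inhibitor of γ-glutamyl cysteine synthase that blocks the making of glutathione from cysteine. The knockout affects the whole mouse and is not confined to the liver. The labels call the control genotype wild type, whereas the study's list of mice calls it heterozygous, and it is written Cse+/- here. No Cse-/- livers on the control diet were analysed here, so that for this genotype no diet can be set against the control diet.

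The transcription factor p53 is held low in resting cells by Mdm2, a ubiquitin ligase that p53 itself switches on, and it accumulates when DNA or other damage signals reach it. It then induces Cdkn1a, which encodes the inhibitor p21 of cyclin-dependent kinases, with Ccng1, Btg2, Phlda3 and Gadd45a. Gadd45b and Gadd45g are relatives of Gadd45a that respond to cytokines, hormones and stress, and Ccnd1 encodes cyclin D1, which drives cells from G1 into S phase and is opposed by p21. Hepatocytes rarely divide in the adult liver, where Cdkn1a, Btg2 and the Gadd45 genes are also known to change with fasting and other hormonal states.

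Sequences upstream of 6 of the genes are shown because these carry short motifs of factors that are known to act in such responses. They come from the RefSeq promoters of GRCm38.p6, in which 8 of the 9 genes have an entry, with 2 starts for Cdkn1a, and Ccnd1 has none. Each runs 5′ to 3′ towards the start of the gene and ends before the first annotated base. Capitals mark matches on either strand to the p53 decamer (the repeated unit of the p53 response element), the cyclic AMP element CRE (TGACGTCA), the C/EBP and ATF element CARE (TGATGNAA) or the E-box CACGTG. The activator protein 1 motif AP-1 (TGANTCA) was searched as well and was found in none of the windows.

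Cdkn1a, chr17:29090729-29090975 (plus strand): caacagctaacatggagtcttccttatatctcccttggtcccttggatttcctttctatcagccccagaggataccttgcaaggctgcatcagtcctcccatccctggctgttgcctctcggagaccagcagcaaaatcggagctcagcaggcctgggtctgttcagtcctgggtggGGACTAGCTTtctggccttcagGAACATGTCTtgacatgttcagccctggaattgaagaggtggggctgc
Mdm2, chr10:117710759-117711008 (minus strand): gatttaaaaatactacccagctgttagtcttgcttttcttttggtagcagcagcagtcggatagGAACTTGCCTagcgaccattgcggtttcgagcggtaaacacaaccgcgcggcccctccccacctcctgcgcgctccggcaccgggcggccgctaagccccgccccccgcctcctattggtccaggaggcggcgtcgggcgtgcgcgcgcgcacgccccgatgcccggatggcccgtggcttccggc
Ccng1, chr11:40755312-40755536 (minus strand): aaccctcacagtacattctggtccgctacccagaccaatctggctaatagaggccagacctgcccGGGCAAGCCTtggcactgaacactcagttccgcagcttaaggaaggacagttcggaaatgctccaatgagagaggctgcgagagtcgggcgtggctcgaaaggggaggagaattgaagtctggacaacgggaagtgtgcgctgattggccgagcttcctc
Btg2, chr1:134079156-134079405 (minus strand): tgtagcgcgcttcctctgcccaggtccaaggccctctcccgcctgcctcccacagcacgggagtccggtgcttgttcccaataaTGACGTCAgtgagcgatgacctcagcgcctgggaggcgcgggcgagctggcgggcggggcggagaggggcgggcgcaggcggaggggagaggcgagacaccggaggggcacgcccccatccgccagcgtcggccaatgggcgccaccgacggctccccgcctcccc
Gadd45b, chr10:80929841-80930072 (plus strand): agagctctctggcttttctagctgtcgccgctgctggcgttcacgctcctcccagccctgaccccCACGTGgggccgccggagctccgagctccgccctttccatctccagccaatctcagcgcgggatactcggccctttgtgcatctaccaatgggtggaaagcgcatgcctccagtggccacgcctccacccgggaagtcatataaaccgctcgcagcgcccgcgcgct
Gadd45g, chr13:51846425-51846674 (plus strand): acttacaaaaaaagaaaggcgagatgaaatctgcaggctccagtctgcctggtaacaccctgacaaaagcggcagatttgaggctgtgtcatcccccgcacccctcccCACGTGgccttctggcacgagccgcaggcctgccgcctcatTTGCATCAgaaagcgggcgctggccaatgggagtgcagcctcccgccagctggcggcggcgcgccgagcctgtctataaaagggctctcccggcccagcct

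The p53 decamer was present in 4 of the 9 windows, each of 300 bases, and in 8.36% of the 32851 windows of all RefSeq promoters. It stood at positions -73 and -51 from the first start of Cdkn1a, at -186 in Mdm2, at -185 in Ccng1 and at -40 in Gadd45a, where it lies within an annotated exon and is not shown. The second start of Cdkn1a held none of the motifs. Btg2 held a CRE at -166, a motif of 1.79% of all promoters. Gadd45g held a CARE at -101 (3.97% of promoters) and an E-box at -142, and Gadd45b held an E-box at -185 (7.15% of promoters). The AP-1 motif was in 7.81% of all promoters. No match overlapped another. A match describes only these letters in this window.

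The libraries held 11785740 to 57986121 counts on genes, with a median of 15252745. Cth, the symbol of the Cse gene, was at 88.4 to 332 CPM (counts relative to the total of each library) in the 9 Cse+/- livers and at 6.37 to 14.4 CPM in the 11 Cse-/- livers, so that every library matched its genotype. Hepatocyte markers dominated all livers, and pancreas markers summed to at most 1.90 CPM. The 8 hepatocyte markers summed to 52827 to 86103 CPM in Cse-/- no-Cys livers and to 99362 to 126054 CPM in Cse+/- no-Cys livers, and 4 of them fell and 1 rose in that comparison. In that comparison 23.8% of all genes were called. The 5 red cell genes tested all fell, and all 6 red cell genes listed summed to 69.1 to 114 CPM in Cse-/- no-Cys and 201 to 406 CPM in Cse+/- no-Cys livers. Of the stellate cell markers 3 of 7 fell, with sums of 186 to 228 CPM against 237 to 285 CPM, and of the Kupffer and other immune markers 1 of 11 tested fell, with sums of 260 to 303 CPM against 321 to 417 CPM. Of the cholangiocyte markers 1 of 4 tested fell, with sums of 4.60 to 8.41 CPM against 7.47 to 15.4 CPM. Of the endothelial markers 1 of 6 rose. Of the 3 adipose markers tested edgeR called 0, with 1 at an unadjusted P under 0.05 (36.2% of all genes) and 0 by DESeq2. In whole liver, fewer cells of a type and less RNA per cell cannot be told apart. Between Cse-/- no-Cys and no-Trp livers, 4 of 8 hepatocyte and 3 of 5 red cell markers were called, where 10.4% of all genes were. Between Cse-/- no-Trp + BSO and Cse+/- no-Trp livers, 2 of 5 red cell and 2 of 11 immune markers were called. There 1 of 7 stellate, 1 of 6 endothelial and 0 of 8 hepatocyte markers were called too, against 11.9% of all genes. The part of these differences in the results below was not tested.

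Levels are given as CPM scaled with TMM factors, differences as log2 fold changes ± SE, and a change is called where the P value of edgeR, adjusted over all 14759 genes, is under 0.05. Of the 9 genes, 3 differed by genotype on the no-Cys diet, where 23.8% of all genes did, with 2 higher (Cdkn1a and Gadd45b) and 1 lower (Ccnd1). Between Cse-/- mice on the no-Cys and the no-Trp diet, 1 was called (Cdkn1a) against 10.4% of all genes. Between Cse-/- no-Trp + BSO and Cse+/- no-Trp livers 4 changed, 1 higher (Ccng1) and 3 lower (Btg2, Gadd45g and Ccnd1), against 11.9% of all genes. The groups of this last comparison differ both in genotype and in BSO.

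Cdkn1a alone was called between the BSO and the no-Cys livers of knockouts, where 2.75% of all genes were. Cdkn1a and Btg2 were lower in Cse+/- no-Cys than in Cse+/- no-Trp livers (8.04% of all genes called) and than in Cse+/- control livers (2.18%). The interaction of genotype and diet, which asks whether the effect of genotype differs between the no-Cys and no-Trp diets, was called for Cdkn1a alone, against 4.36% of all genes.

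With edgeR, none of the 9 was called in the other 3 comparisons. Between Cse-/- no-Trp + BSO and Cse-/- no-Trp, 0.793% of all genes were called. An unadjusted P under 0.05 was found for 2 of the 9 and for 13.0% of all genes, and DESeq2 called 0 of the 9. Between Cse-/- and Cse+/- on the no-Trp diet, 2.64% of all genes were called. Here 3 of the 9 and 18.4% of all genes had an unadjusted P under 0.05, and DESeq2 called 1 of the 9 (Ccnd1). Between Cse+/- no-Trp and control, 0.0474% of all genes were called. There 2 of the 9 and 9.29% of all genes had an unadjusted P under 0.05, and DESeq2 called 0 of the 9. These comparisons share groups with one another, so that a group that stands apart enters several of them.

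**Figure D1:**
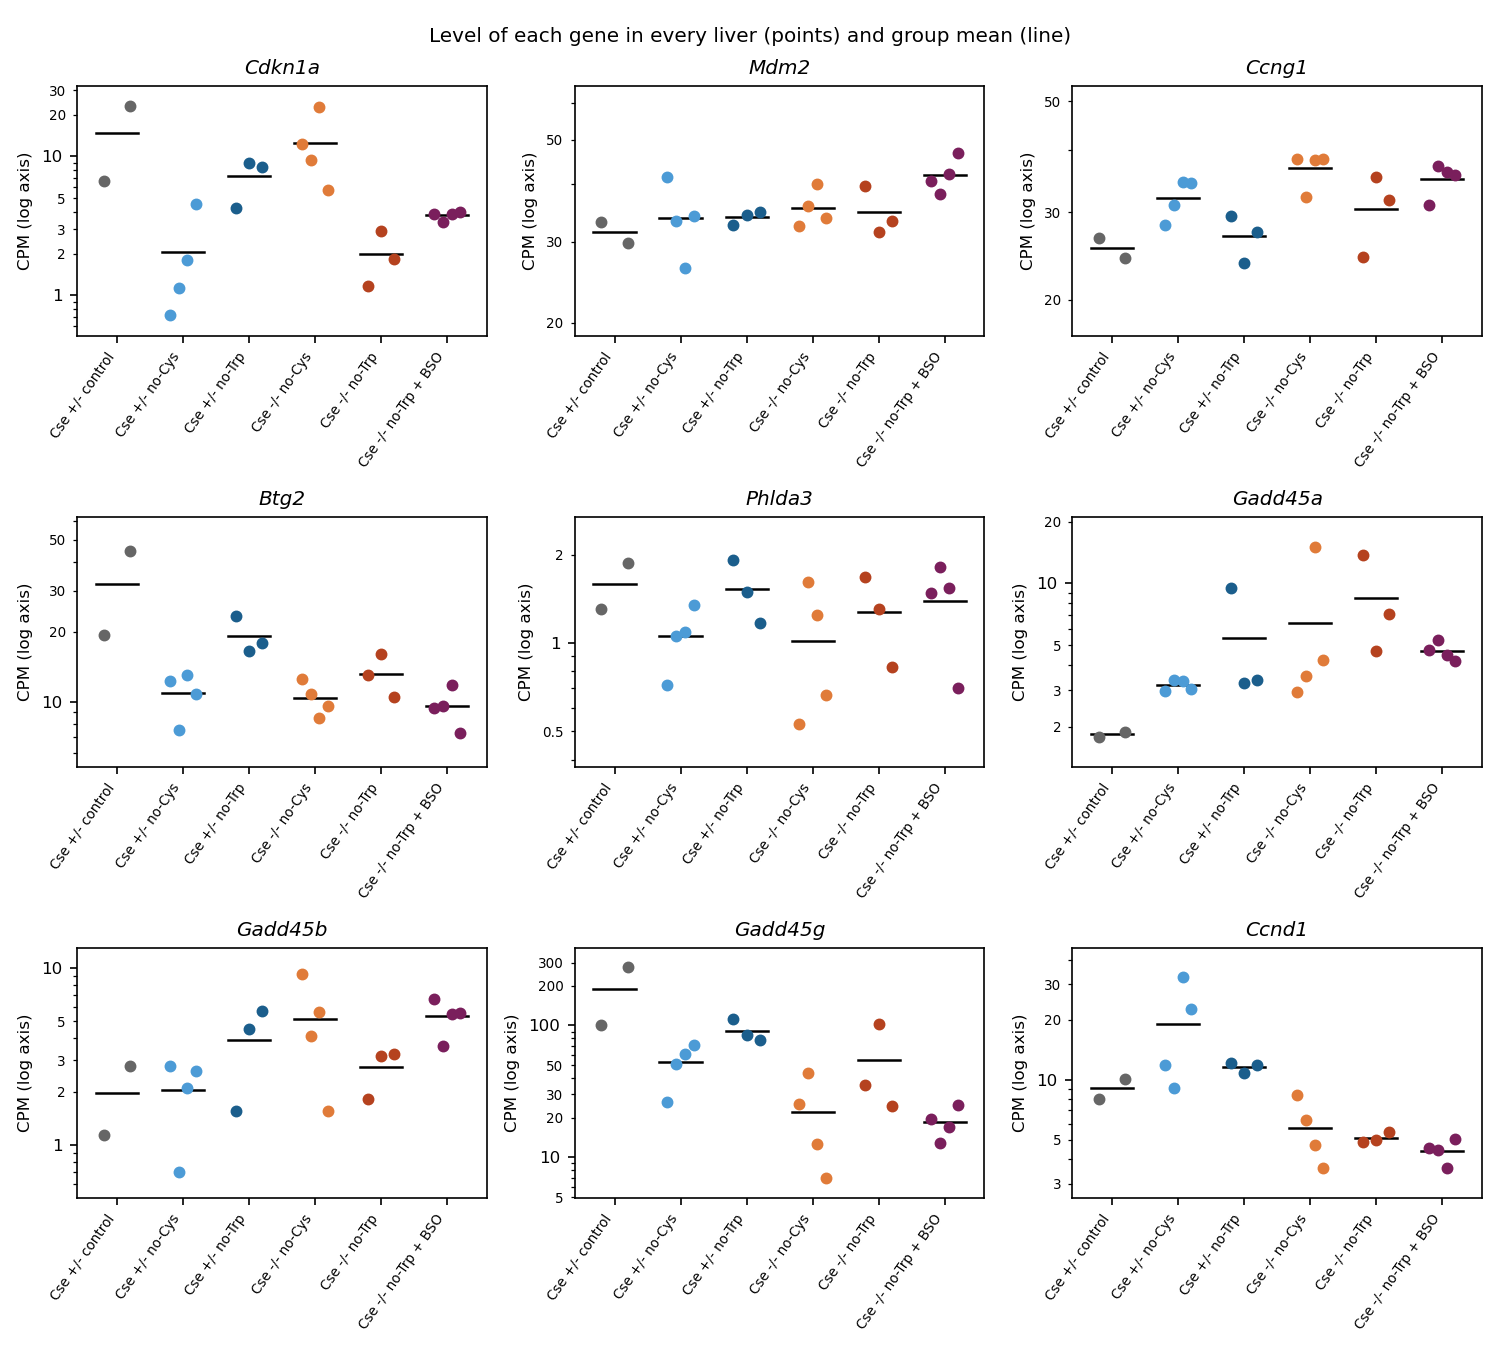
Levels of the 9 genes in each of the 20 livers, as CPM on a log axis, with points for livers and a line for the mean of each of the 6 groups. Cdkn1a ranges from 0.721 to 22.9 CPM and Ccnd1 is at 3.58 to 8.32 CPM in the 11 Cse-/- livers, whereas Mdm2 stays between 26.3 and 46.7 CPM in all 20.

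Cdkn1a (ENSMUSG00000023067, chr17:29090976-29100727 of GRCm38), the gene of p21, was at 12.3, 9.39, 22.5 and 5.76 CPM in the 4 Cse-/- no-Cys livers. In Cse+/- mice on the same diet it was at 0.721, 1.13, 1.79 and 4.53 CPM. Every Cse-/- liver was above every Cse+/- liver on this diet. The ratio of the group means was 6.12, and the log2 fold change was 2.58 ± 0.50 (adjusted P = 0.00097). The call held under all 16 alternative settings, with log2 fold changes of 2.15 to 3.35, the highest of them without the Cse+/- liver at 4.53 CPM.

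On the no-Trp diet the genotypes stood the other way around. Cdkn1a was at 1.17, 2.93 and 1.82 CPM in Cse-/- no-Trp livers and at 4.26, 8.90 and 8.41 CPM in Cse+/- no-Trp livers. The groups did not overlap, but the log2 difference of -1.93 ± 0.55 missed the threshold (adjusted P = 0.0646). It was called without the Cse+/- no-Trp liver at 4.26 CPM (-2.17 ± 0.57, adjusted P = 0.0491) and without a filter on low counts (adjusted P = 0.0026). The interaction of genotype and diet was 4.51 ± 0.74 on the log2 scale (adjusted P = 0.00227). It was called under all 22 alternatives, which gave 4.09 to 5.28, the highest without the Cse+/- no-Cys liver at 4.53 CPM. Within the Cse-/- genotype, Cdkn1a was higher on the no-Cys than on the no-Trp diet by 2.70 ± 0.54 on the log2 scale (adjusted P = 0.00409). Within the Cse+/- genotype it was lower on the no-Cys than on the no-Trp diet, by -1.81 ± 0.52 (adjusted P = 0.0379), and this call was lost without any one of 5 of the 7 livers and in a fit of these groups alone (adjusted P = 0.0628) but held, at -2.57 ± 0.56, without the Cse+/- no-Cys liver at 4.53 CPM.

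With BSO, Cdkn1a was at 3.82, 3.35, 3.86 and 4.0 CPM, the narrowest range of any group. These 4 livers lay above all 3 Cse-/- no-Trp livers and below all Cse-/- no-Cys livers. The log2 difference from the Cse-/- no-Trp livers was 0.97 ± 0.54 (adjusted P = 0.463). The difference from the Cse-/- no-Cys livers was -1.73 ± 0.44 (adjusted P = 0.0412), a call that was lost without any one of 7 of the 8 livers and with every library thinned to the depth of the shallowest (adjusted P = 0.0519).

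The highest mean of Cdkn1a was in the Cse+/- control livers, where the 2 mice were at 6.60 and 22.9 CPM. Both were above all Cse+/- no-Cys livers, with a log2 difference of -2.81 ± 0.56 for no-Cys minus control (adjusted P = 0.0123). Without the control liver at 22.9 CPM it was -1.66 ± 0.65 and was not called (adjusted P = 0.459). It was -3.45 ± 0.57 without the other control liver and -3.56 ± 0.58 without the Cse+/- no-Cys liver at 4.53 CPM, and was called in both cases, whereas in a fit of these groups alone it was not (-2.81 ± 0.60, adjusted P = 0.0677). Ordered by mean, the groups ran from Cse-/- no-Trp (1.97 CPM) over Cse+/- no-Cys (2.04 CPM), Cse-/- no-Trp + BSO (3.76 CPM), Cse+/- no-Trp (7.19 CPM) and Cse-/- no-Cys (12.5 CPM) to Cse+/- control (14.8 CPM). Of these neighbours, only the BSO and Cse+/- no-Trp livers did not overlap, and their difference was not called, except in a fit of these groups alone (-0.95 ± 0.23, adjusted P = 0.0226). The values rest on 8 to 393 counts per library, and 7.84% of the 61-base words of the Cdkn1a transcripts also occur in other genes.

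Mdm2 (ENSMUSG00000020184, chr10:117688875-117710758), the ligase that degrades p53 and a target of it, was the steadiest of the 9 together with Ccng1. It was at 32.4, 35.9, 40.1 and 33.7 CPM in Cse-/- no-Cys livers and at 41.5, 33.3, 26.3 and 34.1 CPM in Cse+/- no-Cys livers. The ranges overlapped, with a log2 difference of 0.07 ± 0.12 (adjusted P = 0.684). The BSO livers had the highest mean, at 40.6, 38.1, 42.2 and 46.7 CPM, and lay above all 3 Cse+/- no-Trp livers (32.7 to 34.8 CPM). That difference was 0.30 ± 0.12 on the log2 scale and was not called (adjusted P = 0.11). Mdm2 was called in none of the 10 comparisons, under any alternative setting.

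Ccng1 (ENSMUSG00000020326, chr11:40748552-40755311) encodes cyclin G1, which binds a phosphatase that acts on Mdm2. It was at 31.0, 37.0, 36.1 and 35.6 CPM with BSO and at 29.4, 23.8 and 27.4 CPM in Cse+/- no-Trp livers. The groups did not overlap, and the log2 fold change was 0.38 ± 0.12 (adjusted P = 0.0410), a ratio of means of 1.30. The call was lost under 9 of the 15 alternatives, among them upper-quartile scaling (adjusted P = 0.0587) and leaving out any one of 5 livers. Genotype and BSO both differ between these groups. Genotype alone on the no-Trp diet gave 0.18 ± 0.13 (adjusted P = 0.468). BSO within Cse-/- mice gave 0.20 ± 0.12 (adjusted P = 0.495), and neither was called. On the no-Cys diet Ccng1 was at 38.3, 32.2, 38.2 and 38.3 CPM in Cse-/- livers and at 28.3, 31.0, 34.4 and 34.3 CPM in Cse+/- livers, with a difference of 0.20 ± 0.11 (adjusted P = 0.201). The control livers were at 26.7 and 24.3 CPM.

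Btg2 (ENSMUSG00000020423, chr1:134075170-134079120) belongs to the BTG/TOB family of antiproliferative proteins, which recruit the deadenylase of mRNA. It was at 19.4 and 44.7 CPM in the Cse+/- control livers and at 23.4, 16.5 and 17.9 CPM in Cse+/- no-Trp livers, and these groups overlapped. Cse+/- no-Cys livers were at 12.3, 7.55, 13.0 and 10.8 CPM, below both of these groups. The log2 difference of no-Cys from no-Trp was -0.82 ± 0.24 (adjusted P = 0.0430), and it was lost without any one of the 7 livers (adjusted P up to 0.142). The difference from the control livers was -1.56 ± 0.26 (adjusted P = 0.00535), and without the control liver at 44.7 CPM it was -0.84 ± 0.27 (adjusted P = 0.341). A fit of these groups alone did not call it either (-1.56 ± 0.30, adjusted P = 0.0509).

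Among Cse-/- livers Btg2 was at 12.5, 10.8, 8.50 and 9.59 CPM on the no-Cys diet, at 13.0, 16.1 and 10.5 CPM on the no-Trp diet and at 9.40, 9.58, 11.8 and 7.33 CPM with BSO. The BSO livers were all below the Cse+/- no-Trp livers, by -1.02 ± 0.24 on the log2 scale (adjusted P = 0.00947), and this call held under all 15 alternatives. These groups differ both in genotype and in BSO. Genotype alone on the no-Trp diet gave -0.54 ± 0.25 (adjusted P = 0.261). BSO within Cse-/- mice gave -0.48 ± 0.24 (adjusted P = 0.416), and neither was called. On the no-Cys diet the ranges of the genotypes overlapped, and the difference was -0.07 ± 0.24 (adjusted P = 0.862).

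Phlda3 (ENSMUSG00000041801, chr1:135766119-135769136) encodes a pleckstrin homology protein that restrains Akt. It was the lowest of the 9, at 0.531 to 1.92 CPM and 8 to 85 counts per library. It was at 0.531, 1.61, 1.24 and 0.664 CPM in Cse-/- no-Cys livers and at 0.721, 1.06, 1.09 and 1.34 CPM in Cse+/- no-Cys livers. The log2 difference was -0.08 ± 0.38 (adjusted P = 0.902). No comparison called Phlda3, and its SE of 0.35 to 0.54 on the log2 scale over the 10 comparisons means that only large differences were detectable at this depth.

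The 3 genes of the GADD45 family encode small proteins that bind stress kinases, PCNA and cell cycle proteins. Per kilobase of exon, Gadd45g was the highest of all 9 genes, with a mean of 50.6 CPM per kb over the 20 livers, and Gadd45a and Gadd45b stood at 2.91 and 2.33 CPM per kb. For scale, Ccng1 was at 9.08, Mdm2 at 7.02, Btg2 at 5.19, Ccnd1 at 1.96, Cdkn1a at 1.83 and Phlda3 at 0.814 CPM per kb.

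Gadd45a (ENSMUSG00000036390, chr6:67035096-67037457), the member of the family that p53 induces, was set apart by single livers. It was at 2.95, 3.52, 15.1 and 4.21 CPM in Cse-/- no-Cys livers and at 2.97, 3.39, 3.34 and 3.04 CPM in Cse+/- no-Cys livers. One of the 4 Cse-/- livers was thus far above the rest, and the log2 difference of 1.02 ± 0.47 was not called (adjusted P = 0.122). Without that liver it was 0.17 ± 0.37, and without a filter on low counts it was called at 1.03 ± 0.34 (adjusted P = 0.0420). Cse-/- no-Trp livers were at 13.8, 4.68 and 7.13 CPM, BSO livers at 4.75, 5.29, 4.49 and 4.16 CPM, and Cse+/- no-Trp livers at 9.52, 3.26 and 3.36 CPM. The log2 difference of Cse-/- no-Cys from Cse-/- no-Trp livers was -0.41 ± 0.46 (adjusted P = 0.614), and without the Cse-/- no-Cys liver at 15.1 CPM it was -1.27 ± 0.37 and was called (adjusted P = 0.0450).

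The lowest values of Gadd45a were in the Cse+/- control livers, at 1.78 and 1.88 CPM. All 18 other livers were above them. Neither diet was called against control in Cse+/- mice, with 1.49 ± 0.65 for no-Trp (adjusted P = 0.492; 0.86 ± 0.62 without the Cse+/- no-Trp liver at 9.52 CPM) and 0.80 ± 0.65 for no-Cys (adjusted P = 0.576). An antisense gene, E230016M11Rik, holds 14.8% of the 61-base words of Gadd45a transcripts, and the library kit does not mark strand. E230016M11Rik itself was at 1.26 to 4.92 CPM, and reads of the shared stretch cannot be told apart by strand.

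Gadd45b (ENSMUSG00000015312, chr10:80930073-80932204), an inducible member of the family, was at 9.27, 4.11, 5.65 and 1.55 CPM in Cse-/- no-Cys livers. Cse+/- no-Cys livers were at 2.79, 0.706, 2.1 and 2.62 CPM. In 3 of the 4 Cse-/- livers it exceeded every Cse+/- liver, and the fourth overlapped. The log2 fold change was 1.35 ± 0.48 (adjusted P = 0.0454), a ratio of means of 2.50. The call was lost under 9 of the 16 alternatives, among them DESeq2 (adjusted P = 0.0528) and leaving out the liver at 9.27 CPM (0.91 ± 0.48, adjusted P = 0.200).

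BSO livers were at 6.68, 3.62, 5.47 and 5.54 CPM for Gadd45b, all above the Cse-/- no-Trp livers at 1.81, 3.18 and 3.27 CPM. The difference of 0.98 ± 0.47 on the log2 scale was not called (adjusted P = 0.393). Cse+/- no-Trp livers were at 1.56, 4.51 and 5.75 CPM and control livers at 1.13 and 2.78 CPM. The interaction of genotype and diet was 1.91 ± 0.70 and was not called (adjusted P = 0.126). It was called without the Cse-/- no-Cys liver at 1.55 CPM (2.21 ± 0.62, adjusted P = 0.0330) and without a filter on low counts (adjusted P = 0.0265).

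Gadd45g (ENSMUSG00000021453, chr13:51846678-51848468), the cytokine- and hormone-responsive member, had its highest mean in the Cse+/- control livers, which were at 101 and 276 CPM. Cse+/- no-Trp livers were at 112, 84.7 and 77.8 CPM, overlapping the lower control liver, and Cse+/- no-Cys livers at 26.4, 51.2, 60.8 and 71.7 CPM. All Cse+/- no-Cys livers lay below all livers of the other Cse+/- groups. Neither difference was called with the filter, with -1.84 ± 0.54 against control (adjusted P = 0.0817, or 0.00263 without a filter on low counts; -0.94 ± 0.66 without the control liver at 276 CPM) and -0.79 ± 0.50 against no-Trp (adjusted P = 0.338).

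In Cse-/- livers Gadd45g was at 25.2, 43.3, 12.7 and 6.94 CPM on the no-Cys diet, at 35.4, 103 and 24.4 CPM on the no-Trp diet and at 19.6, 12.9, 16.9 and 24.8 CPM with BSO. The difference of no-Cys from no-Trp in this genotype was -1.30 ± 0.51 and was not called (adjusted P = 0.109). It was called without the no-Cys liver at 43.3 CPM (-1.85 ± 0.52, adjusted P = 0.0415) and without a filter on low counts (adjusted P = 0.0174), and was -0.45 ± 0.50 without the no-Trp liver at 103 CPM. The BSO livers were below all Cse+/- no-Trp livers, with a log2 fold change of -2.29 ± 0.51 (adjusted P = 0.00710), or 0.203 of the mean. This call held under all 15 alternatives. Between genotypes on the no-Trp diet without BSO, the difference was -0.75 ± 0.54 and was not called (adjusted P = 0.484). Against the Cse-/- no-Trp livers the BSO difference was -1.53 ± 0.51 and was not called (adjusted P = 0.171), and without the Cse-/- no-Trp liver at 103 CPM it was -0.69 ± 0.50. Without a filter on low counts it was called (adjusted P = 0.0135). Between the genotypes on the no-Cys diet it was -1.26 ± 0.48 (adjusted P = 0.0649), and it became called without the Cse-/- liver at 43.3 CPM (-1.81 ± 0.50, adjusted P = 0.0158) or without the Cse+/- liver at 26.4 CPM (adjusted P = 0.0394), and also without a filter on low counts (adjusted P = 0.00747).

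Ccnd1 (ENSMUSG00000070348, chr7:144929931-144939925), the gene of cyclin D1, separated the genotypes most evenly. It was at 8.32, 6.23, 4.72 and 3.62 CPM in Cse-/- no-Cys livers, at 4.88, 4.99 and 5.43 CPM in Cse-/- no-Trp livers and at 4.52, 4.42, 3.58 and 5.03 CPM with BSO. Cse+/- livers were at 11.9, 9.10, 32.7 and 22.6 CPM on the no-Cys diet, at 12.1, 10.7 and 11.8 CPM on the no-Trp diet and at 8.03 and 10.0 CPM on the control diet. The 11 Cse-/- livers thus spanned 3.58 to 8.32 CPM and the 9 Cse+/- livers 8.03 to 32.7 CPM, and a single Cse-/- liver, on the no-Cys diet, reached above the lowest control liver.

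On the no-Cys diet Ccnd1 fell by 1.73 ± 0.30 on the log2 scale in Cse-/- livers (adjusted P = 0.000435), to 0.300 of the Cse+/- mean, and the call held under all 16 alternatives. Cse-/- no-Trp + BSO livers were lower than Cse+/- no-Trp livers by -1.38 ± 0.31 (adjusted P = 0.00793), and this call held under all 15 alternatives. Without BSO the difference between genotypes on the no-Trp diet was -1.17 ± 0.34 and missed the threshold (adjusted P = 0.0685), whereas DESeq2 (adjusted P = 0.0177), a fit of these groups alone (adjusted P = 0.0195) and a fit without a filter on low counts (adjusted P = 0.00664) called it. The interaction of genotype and diet was -0.56 ± 0.45 (adjusted P = 0.534). No difference between the 3 Cse-/- groups was called, with -0.38 ± 0.31 for BSO against no-Cys (adjusted P = 0.526), 0.17 ± 0.33 for no-Cys against no-Trp (adjusted P = 0.793) and -0.20 ± 0.33 for BSO against no-Trp (adjusted P = 0.855). Among the Cse+/- groups Ccnd1 was 1.08 ± 0.37 higher on the no-Cys than on the control diet (adjusted P = 0.129), and this difference was called only without a filter on low counts (adjusted P = 0.0326). The difference of no-Cys from no-Trp was 0.73 ± 0.31 (adjusted P = 0.150) and that of no-Trp from control 0.35 ± 0.38 (adjusted P = 0.827), and neither was called.

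LTO1, a gene on the other strand next to Ccnd1, holds 21.2% of the 61-base words of the Ccnd1 transcripts. It was at 11.4 to 17.4 CPM over all 20 livers, and in reads without strand the shared stretch cannot be assigned to either gene.

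**Figure D2:**
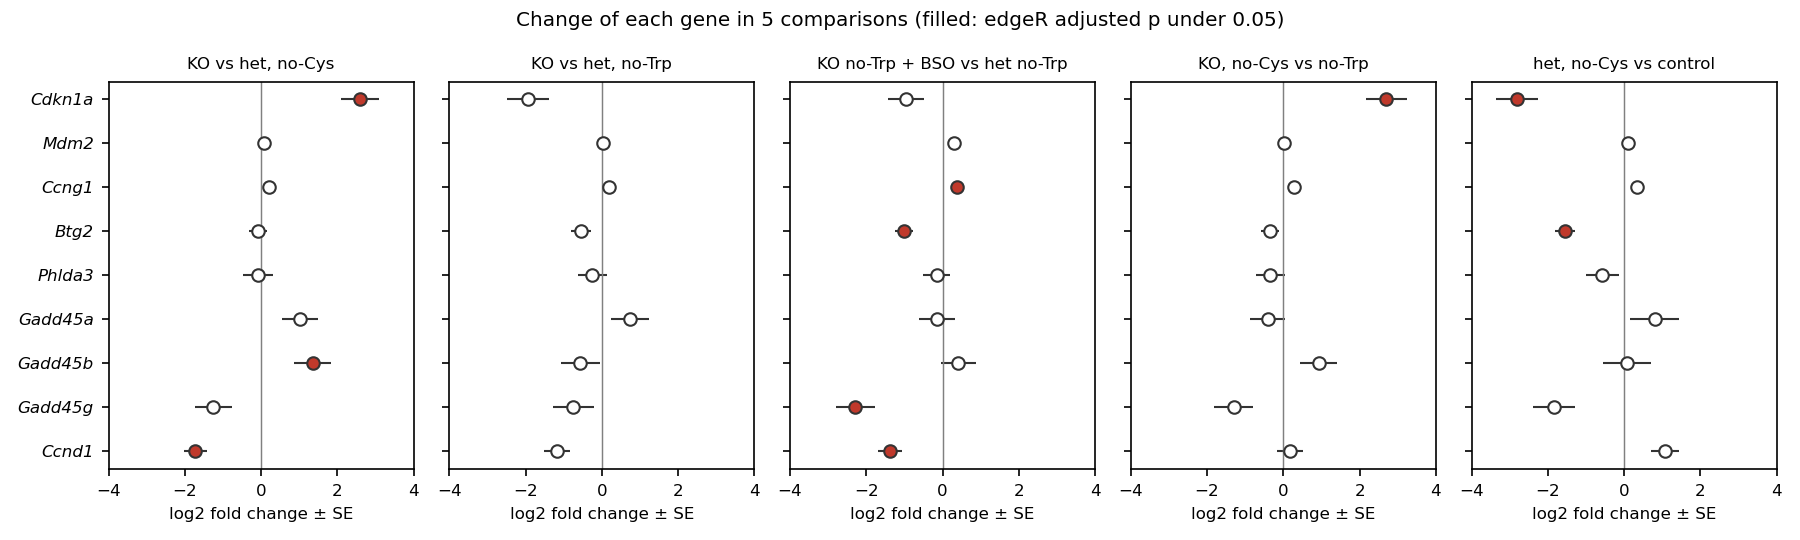
Log2 fold changes ± SE of the 9 genes in 5 of the 10 comparisons, where KO stands for Cse-/- and het for Cse+/-, and filled points have an adjusted P of edgeR under 0.05. Cdkn1a stands at 2.58 and Ccnd1 at -1.73 between genotypes on the no-Cys diet, and Mdm2 lies between 0.03 and 0.30 in all 5 panels.

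Variation between livers of a group differed between the genes. The biological coefficient of variation that edgeR fitted was 45.9% for Gadd45g, 44.7% for Cdkn1a, 43.3% for Gadd45b and 41.7% for Gadd45a. These 4 genes lay between the 96.7 and 97.8 percentiles of all genes tested, for which the median was 14.2%. Ccnd1 (28.1%), Phlda3 (27.4%) and Btg2 (21.9%) were above that median as well, and Mdm2 (11.6%) and Ccng1 (11.2%) were below it.

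**Figure D3:**
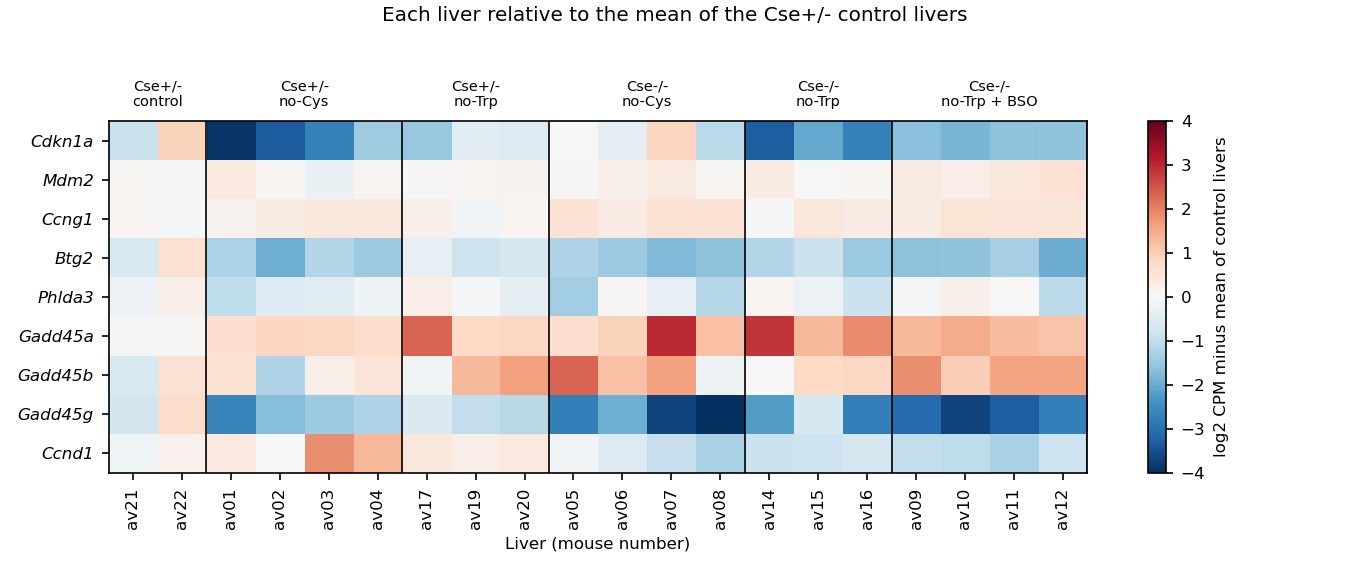
Log2 CPM (prior count 2) of each gene in every liver minus the mean of the 2 Cse+/- control livers, with livers in columns by group and colour from -4 to 4. Gadd45g, Btg2 are below the control mean and Gadd45a is above it in all 18 livers on other diets, and Ccnd1 is below it in all 11 Cse-/- livers.

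Across the 20 livers, the pair of the 9 genes with the highest correlation of log2 CPM was Btg2 and Gadd45g (Pearson's r = 0.78), and r was 0.44 after removing the group means and 0.70 without the control liver that was highest for both. Gadd45g and Ccnd1 had r = 0.59 (0.49 within groups). Cdkn1a and Gadd45b had r = 0.44 (0.61 within groups), and Cdkn1a and Ccnd1 had r = -0.09 (0.45 within groups). Cdkn1a and Mdm2 had r = -0.12. The lowest values were -0.64 for Ccng1 and Gadd45g (0.07 within groups), -0.62 for Ccng1 and Btg2 (0.06) and -0.58 for Mdm2 and Ccnd1 (-0.50). The points share libraries and group membership, and these values are descriptions.

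Among 12582 genes with a mean of at least 1 CPM, the 3 whose log2 CPM followed Cdkn1a most closely over the 20 livers were Gm11827 (r = 0.83, and 0.46 within groups), Exosc2 (0.82 and 0.55) and Ubxn6 (0.80 and 0.66). For Mdm2 they were Brwd1 (0.86 and 0.82), Hnrnph3 (0.83 and 0.90) and Nxf1 (0.83 and 0.81). For Gadd45g they were Tnfrsf1b (0.89 and 0.76), Tdrp (0.85 and 0.66) and Scp2-ps2 (0.85 and 0.47), and for Ccnd1 Tspan7 (0.88 and 0.62), Fabp5 (0.88 and 0.66) and Tra2a (0.83 and 0.41). None of the other 8 genes was among the 3 closest to any of these 4.

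Other genes of the pathway were read on the no-Cys diet, Cse-/- minus Cse+/-. Of 27 further genes known as p53 targets, 24 were tested, and 4 rose and 4 fell, where 23.8% of all genes were called. Their median log2 fold change was -0.05, against -0.0093 over all genes tested. Those that rose were Ephx1, an epoxide hydrolase also known as an NRF2 target (1.29 ± 0.18, adjusted P = 5.58e-05), Sesn2, a sestrin that restrains mTORC1 (0.77 ± 0.19, adjusted P = 0.00556), Bbc3, which encodes the proapoptotic PUMA (0.66 ± 0.24, adjusted P = 0.0495), and Aen, an exonuclease of apoptosis (0.47 ± 0.16, adjusted P = 0.0352). Those that fell were Pmaip1, which encodes the proapoptotic NOXA (-1.16 ± 0.40, adjusted P = 0.0417), Perp, a desmosomal protein (-1.11 ± 0.11, adjusted P = 2.27e-06), Tap1, a peptide transporter of antigen presentation (-0.76 ± 0.17, adjusted P = 0.00340), and Plk2, a polo-like kinase (-0.74 ± 0.20, adjusted P = 0.0111). The calls of Pmaip1 and Aen were each lost without any one of 7 of the 8 livers and that of Bbc3 without any one of 5, and the other 5 held without any one liver.

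Among these targets Cdkn1a stood highest, with a log2 fold change of 2.58. Bax, which encodes another proapoptotic protein, was at 0.18 ± 0.18 (adjusted P = 0.503) and Zmat3 at 0.15 ± 0.12 (adjusted P = 0.394), both named after their values were seen. Between Cse-/- mice on the no-Cys and the no-Trp diet, where Cdkn1a was also called, 1 of the 24 targets rose and 3 fell, where 10.4% of all genes were called. The interaction of genotype and diet was called for 2 of the 24, 1 in each direction, and for 4.36% of all genes. Between BSO and Cse+/- no-Trp livers 4 of the 24 rose and 2 fell, where 11.9% of all genes were called. Of the 24, edgeR called 2 between genotypes on the no-Trp diet (2.64% of all genes) and 2 between Cse+/- no-Cys and no-Trp (8.04%). It called 1 between BSO and Cse-/- no-Trp (0.793%) and 0 between BSO and Cse-/- no-Cys (2.75%). Against the Cse+/- control livers it called 0 for no-Trp (0.0474%) and 0 for no-Cys (2.18%). In each of these 6 comparisons DESeq2 called 0 to 2.

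**Figure D4:**
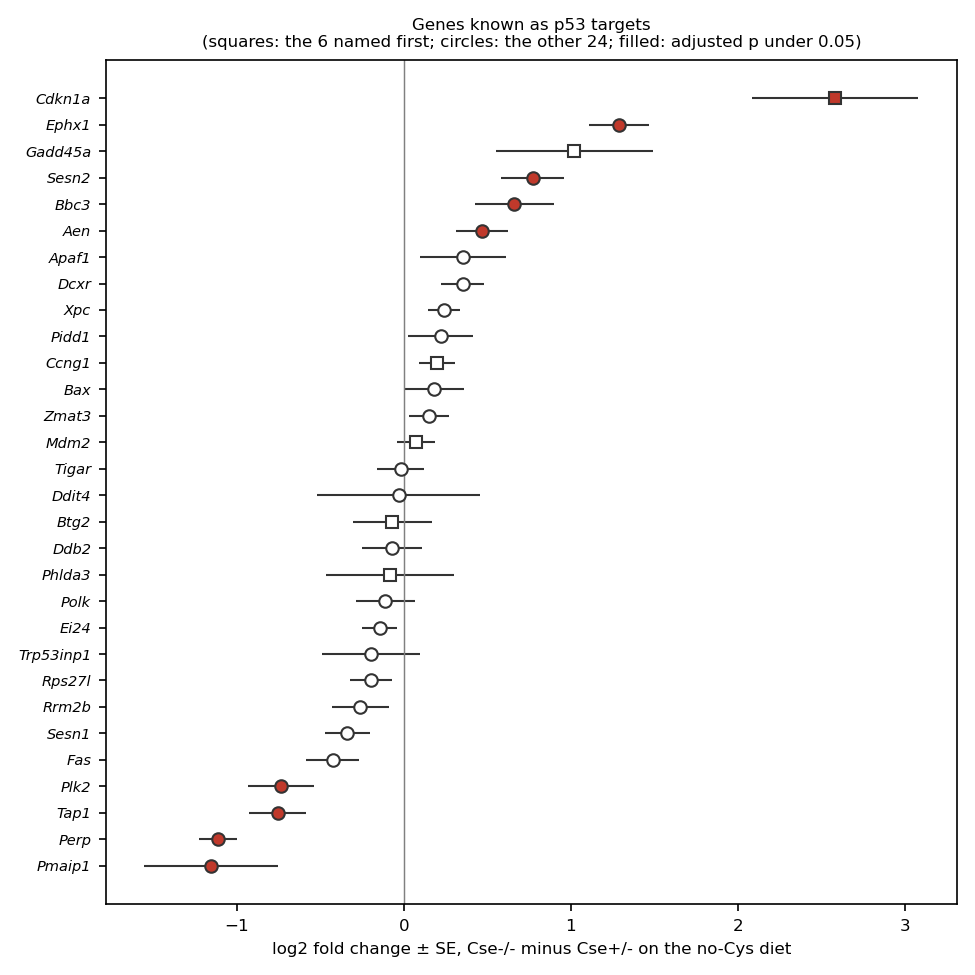
Log2 fold change ± SE between Cse-/- and Cse+/- livers on the no-Cys diet for 30 tested genes known as p53 targets, with squares for 6 of the 9 genes described first, circles for the other 24, and filled points for an adjusted P of edgeR under 0.05. Cdkn1a is at 2.58 and the lowest, Pmaip1, is at -1.16, with called genes on both sides of 0.

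Of 10 genes for p53 and its regulators, 1 rose and 1 fell on the no-Cys diet, where 23.8% of all genes were called. Atr, the kinase that signals replication stress, was at 15.3 to 17.4 CPM in Cse-/- and 8.77 to 12.3 CPM in Cse+/- livers (0.62 ± 0.15, adjusted P = 0.00517). Ppm1d, a phosphatase that shuts off p53 signalling, was at 4.28 to 5.28 CPM and 5.68 to 6.91 CPM (-0.39 ± 0.12, adjusted P = 0.0301), a call that was lost without any one of 6 of the 8 livers. Trp53 itself, which encodes p53, was at 0.16 ± 0.10 (adjusted P = 0.260) and was also named after its value was seen. RNA levels do not show the amount or activity of the p53 protein.

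Of 7 other inhibitors of cyclin-dependent kinases, 4 were tested and edgeR called 0, with 0 at an unadjusted P under 0.05 and 0 by DESeq2. The most abundant, Cdkn1b (p27), was at 32.2 to 45.2 CPM in Cse-/- and 26.7 to 37.9 CPM in Cse+/- no-Cys livers (0.26 ± 0.13, adjusted P = 0.160). Of 13 other cyclins, kinases and pocket proteins of G1, 4 fell on the no-Cys diet and none was called higher, where 23.8% of all genes were called. These were Ccne1 (-0.97 ± 0.30), Ccne2 (-0.80 ± 0.22) and Ccnd2 (-0.56 ± 0.16), which encode cyclins, and the kinase gene Cdk2 (-0.76 ± 0.14). The call of Ccne1 was lost without any one of 4 of the 8 livers and that of Ccnd2 without any one of 2. Ccnd3, which encodes the third D-type cyclin, was at 0.11 ± 0.12 and was named after its value was seen.

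Of 4 other BTG/TOB genes, Btg1 (-0.80 ± 0.12, adjusted P = 0.000142) and Tob1 (-0.52 ± 0.13, adjusted P = 0.00715) fell, whereas Btg2 was at -0.07 ± 0.24. Of 22 proliferation genes, 16 were tested, and 4 fell and 1 rose, where 23.8% of all genes were called. The mitotic kinase gene Cdk1 (-2.66 ± 0.46), Ccna2 of cyclin A2 (-1.24 ± 0.39), the thymidine kinase gene Tk1 (-0.97 ± 0.18) and Aurka (-0.75 ± 0.18) fell, and the replication helicase gene Mcm7 (0.57 ± 0.15) rose. The call of Ccna2 was lost without any one of 5 livers.

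Of 13 immediate early genes tested, Klf10 (0.95 ± 0.16) rose and Fos (-1.86 ± 0.59) and Dusp1 (-1.61 ± 0.38) fell, where 23.8% of all genes were called. Fos ranged from 1.06 to 13.5 CPM in Cse+/- no-Cys livers and from 0.869 to 1.92 CPM in Cse-/- no-Cys livers. In Cse+/- control livers Fos had a mean of 0.755 CPM, against 4.84 CPM in Cse+/- and 1.32 CPM in Cse-/- no-Cys livers. Without the Cse+/- liver at 13.5 CPM it was at -0.57 ± 0.42 and was not called (adjusted P = 0.356), and its call was also lost without either of 2 Cse-/- livers. Of 9 glucocorticoid-responsive genes, Mt2 (1.66 ± 0.53) and Zbtb16 (1.66 ± 0.38) rose and Tsc22d3 (-1.40 ± 0.28), Sgk1 (-0.67 ± 0.17) and Errfi1 (-0.31 ± 0.11) fell. A rise or fall here is Cse-/- against Cse+/- on this diet. In Cse-/- no-Cys, Cse+/- no-Cys and Cse+/- control livers, Mt2 had means of 144, 45.8 and 393 CPM. Means in the same order were 71.5, 22.6 and 37.9 CPM for Zbtb16 and 126, 333 and 175 CPM for Tsc22d3. Those for Sgk1 were 21.1, 33.8 and 25.3 CPM. In Cse+/- no-Trp livers Mt2 had a mean of 732 CPM and Tsc22d3 of 111 CPM. The call of Errfi1 was lost without any one of 6 of the 8 livers and that of Mt2 without any one of 5, whereas without the Cse+/- liver at 96.5 CPM it was at 2.32 ± 0.54. Of the genes that the study itself names for the integrated stress response and the oxidative stress response, 11 of 14 and 8 of 8 rose on the no-Cys diet. These were named from liver data of this study and are not independent evidence of their direction. The 14 genes of the integrated stress response include Chac1, which also rose. The study's text links Chac1 to the loss of glutathione, citing its figure of both responses.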

How the data were processed

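Livers of 20 mice were analysed, grouped by the labels, with table columns assigned through the study's list of mice. The table also holds 1 column of per-sample values that was not used, since that list does not give its condition. The authors deposited raw counts per gene: they aligned reads to GRCm38 with HISAT2 2.1.0 and counted them with HTSeq 0.11.0, per their processing notes, and the annotation release and strand setting are not given in the sources used here.

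Genes were filtered with filterByExpr (minimum count 10, minimum total 15), scaled with TMM factors and tested with the quasi-likelihood test of edgeR 4.0.16 in R 4.3.3, fitting 6 group means to all 20 libraries. P values (2-sided) were adjusted over 14759 genes by the Benjamini–Hochberg method. SE was taken from the log2 fold change and the square root of its F statistic. Within groups, chi-square per gene between libraries was 9.60 to 64.2, so none was counted as a duplicate.

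The 9 genes and all lists were chosen with earlier results of these data known. The text names the 9 genes, up to 4 called genes per list with the largest change between genotypes on the no-Cys diet (or the most abundant gene where none was called), 6 further called list genes (Bbc3, Aen, Tap1, Plk2, Mcm7 and Errfi1) and others marked in the text, chosen after their values were seen, and the 3 genes most correlated with a member, given for 4 members. Alternatives tried were DESeq2 1.42.0 (Wald test), scaling by upper-quartile or RLE factors, omitting the filter, requiring a mean CPM of 1, a fit of the compared groups alone, an adjusted P under 0.01, thinning to 11785740 counts, and leaving out each library. Leaving out each library for all called genes of the lists on the no-Cys diet was added after seeing the data. Figures used matplotlib 3.10.9.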

Additional observations from a re-analysis of the deposited data

Results flagged for a closer look

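In Cse-/- no-Cys livers, 1 liver stood far above the other 3 for Gadd45a, at 15.1 CPM. In the same group 1 liver stood below the other 3 for Ccng1, at 32.2 CPM against 38.2 to 38.3 CPM, which is a small difference in size. These are 2 of 27 groups of 4 livers in which the distance of the extreme liver from the next was compared with the range, and chance marks about 1 in 20 such groups. They are different livers.

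The effect of genotype on Cdkn1a differed between the diets. The interaction of genotype and diet was 4.51 ± 0.74 on the log2 scale (adjusted P = 0.00227 with edgeR), with all 4 Cse-/- livers above all 4 Cse+/- livers on the no-Cys diet and all 3 below all 3 on the no-Trp diet.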

How the results depend on the processing

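Of 90 pairs of a gene and a comparison, 14 were called, and 7 of these kept their call under every alternative: Cdkn1a between genotypes on the no-Cys diet, between diets in Cse-/- mice and in the interaction, Ccnd1 between genotypes on the no-Cys diet, and Ccnd1, Btg2 and Gadd45g between BSO and Cse+/- no-Trp livers. A further 11 pairs became called under an alternative, and no called value reversed. Among values called under neither setting, 50 of 1158 had another sign.

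Without a filter on low counts, 5 genes were called between genotypes on the no-Cys diet, 2 between Cse-/- no-Cys and Cse-/- no-Trp, 1 between BSO and Cse-/- no-Trp, 2 between genotypes on the no-Trp diet, 4 between Cse+/- no-Cys and control, and 2 in the interaction. Fits of the compared groups alone called 1 between genotypes on the no-Trp diet, 1 between Cse+/- no-Cys and no-Trp and 0 between Cse+/- no-Cys and control. DESeq2 called 1 between genotypes on the no-Trp diet, where it called 727 of all genes and edgeR 389. Thinning called 0 between BSO and Cse-/- no-Cys. An adjusted P under 0.01 left 0 there, 0 between Cse+/- no-Cys and no-Trp and 1 between Cse+/- no-Cys and control. Among smaller changes, Ccng1 lost its call between BSO and Cse+/- no-Trp without a filter (adjusted P = 0.0526) and with thinning (adjusted P = 0.114). Gadd45b lost its call between genotypes on the no-Cys diet with DESeq2 (adjusted P = 0.0528) and in a fit of these groups alone (adjusted P = 0.0756). Except for DESeq2, the share of all genes called under these settings, or with a library left out, is not given here. The cause was not tested.

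Leaving out 1 library at a time gave 2 to 4 calls between genotypes on the no-Cys diet, 1 to 2 between Cse-/- no-Cys and no-Trp, 0 between BSO and Cse-/- no-Trp, 0 to 1 between BSO and Cse-/- no-Cys, 0 to 1 between genotypes on the no-Trp diet, 3 to 4 between BSO and Cse+/- no-Trp, 0 to 1 between Cse+/- no-Cys and no-Trp, 0 between Cse+/- no-Trp and control, 0 to 2 between Cse+/- no-Cys and control, and 1 to 2 in the interaction. No paired analysis was possible because the columns carry mouse numbers but not the replicate numbers of the labels. Phlda3 rests on 8 to 85 counts a library and Cdkn1a on 8 to 393, and the 2 control livers limit every comparison with them.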
